A study of Mus musculus with 4 samples.

Results

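Cytosolic ribosomal protein genes were followed in microglia, the resident immune cells of the brain, from mice treated with a TREM2 antibody. The members are the symbols that begin with Rpl or Rps and a digit, plus Rplp0, Rplp1, Rplp2 and Rpsa, without Rps6k kinases and symbols marked -ps. This gave 85 members among 19737 symbols, of which 84 passed the filter on low counts that left 14058 tested genes. The exception, Rpl3l, is a paralog known from muscle and had 10 UMIs in all mice. The symbols are 34 of the small (40S) subunit type and 51 of the large (60S) subunit type. Of the 85, 77 are core proteins of the ribosome and 8 are paralogs, a retrogene copy or other proteins that the symbol rule also takes. Those 8 held 0.889% of the members' UMIs.

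The cytosolic ribosome reads mRNA on its small subunit and joins amino acids on its large subunit. Most of its proteins are needed in equal numbers, the stalk proteins Rplp1 and Rplp2 in more, and many of their mRNAs begin with a run of pyrimidines through which mTOR signaling, acting on Larp1, controls their translation. In microglia, as in most cells, these mRNAs are among the most abundant.

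All mice carried TfRmu/hu, a knock-in of the human apical domain into the transferrin receptor, and were either WT or carried the AppSAA knock-in, which places mutations of familial Alzheimer's disease in the mouse App gene. They received 1 intravenous dose of 10 mg per kg and their brains were taken 24 hours later. The agents were 4D9, an antibody that activates mouse TREM2, ATV:4D9, the same antibody on an Fc that binds the transferrin receptor for transport into brain (antibody transport vehicle, ATV), and ATV:ISO, a transport vehicle with a control antibody. There were 5 groups of 4 mice: WT ATV:ISO, WT ATV:4D9, AppSAA ATV:ISO, AppSAA 4D9 and AppSAA ATV:4D9, and no WT group was given 4D9 without ATV. The annotation names the isotype arm ATV-DNP02, which was taken here to mean ATV:ISO although no label or file says so. Every group had 1 mouse in each of 4 pools, and the pool number serves here to name mice. 1 WT ATV:ISO mouse, that of pool 4, was recorded as female and the others as male. AppSAA;TfRmu/hu mice were listed as 8 months old and WT;TfRmu/hu mice of several experiments as 2 to 8 months, with no age tied to single mice. Sources differ on the sort, live CD11b+ cells or CD45+ CD11b+ cells, and on the tissue, cortex or cortex with hippocampus.

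The promoters of 4 members are shown because their levels moved farthest in opposite directions under ATV:4D9. Rpsa and Rps2 had the largest rises among the core members, and Rps27 and Rps9 the largest falls that passed the test in AppSAA mice. This holds for the main fit, without a pool term. With the pool as a block, Rps27rt at -0.49 and Rpl21 at -0.30 (log2) were also called lower there. Each stretch runs from 80 bases before to 20 bases after the transcript start in RefSeq on GRCm38.p6, 5′ to 3′ on the coding strand. Capitals mark the letters CGGAAG, or those of a pyrimidine word, CTTTCC, or those of a TATA box, TATAAA, each also as its reverse complement. The stretches are chr9:120127686-120127785 on the plus strand for Rpsa, chr17:24719983-24720082 on the plus strand for Rps2, chr3:90213629-90213728 on the minus strand for Rps27 and chr7:3703961-3704060 on the plus strand for Rps9.
Rpsa: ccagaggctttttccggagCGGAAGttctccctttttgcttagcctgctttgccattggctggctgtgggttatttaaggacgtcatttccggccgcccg
Rps2: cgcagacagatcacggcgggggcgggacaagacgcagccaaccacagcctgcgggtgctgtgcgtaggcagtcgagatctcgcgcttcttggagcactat
Rps27: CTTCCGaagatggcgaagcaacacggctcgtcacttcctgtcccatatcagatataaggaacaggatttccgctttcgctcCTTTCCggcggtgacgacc
Rps9: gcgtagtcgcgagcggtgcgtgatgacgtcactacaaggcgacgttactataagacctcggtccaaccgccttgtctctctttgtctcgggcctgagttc
A match of CGGAAG is present in Rpsa and Rps27, which moved in opposite directions, and none of these letters is in the stretches of Rps2 and Rps9. A promoter was at hand for 65 of the 85 members, in a window of 300 bases, 250 before and 50 after the start, searched on both strands. A gene with several starts was counted if any of its windows held the word, and 55 members had 1 start. CGGAAG, the core of the site of ETS factors, was found for 67.7% of these 65 members and for 34.8% of the tested genes with a promoter. CTTTCC was in 53.8% and 30.8%, and TATAAA in 10.8% and 8.96%. Of the other words searched, CTCTTT was in 43.1% and 22.5%, AAGATGG in 15.4% and 8.53% and CACGTG in 9.23% and 11.7%. These matches describe the letters and were not read as binding sites. In the GENCODE vM21 annotation, 23 of 85 members (27.1%) had a coding transcript that begins with C and at least 4 more pyrimidines, against 5.83% of the tested genes found there. Rps2, Rps27 and Rps9 are among the 23 and Rpsa is not. These calls depend on the annotated starts, which differ between RefSeq and GENCODE. In GENCODE the Rpsa gene starts at chr9:120127689, inside the stretch shown and before its CGGAAG. The Rps2 and Rps9 genes start there at chr17:24718116 and chr7:3703993, also before the RefSeq starts used.

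Copies of these genes are common, so some counts are uncertain. In 42 of 85 members (49.4%), more than 50% of the 50-base words in the last 300 bases of the transcripts also occur in another annotated gene. The share was 73.4% for Rps2 with 61 other genes, 58.5% for Rps27 with 9, 37.1% for Rpsa with 18 and 13.8% for Rps9 with 1. How reads that fit several genes were assigned could change the levels of such members, which was not tested. The median fold changes of core members above and at or below that 50% differed little: 0.55 and 0.49 for the ATV:4D9 effect in WT mice and 0.80 and 0.83 for the genotype difference, on the log2 scale. Such medians cannot show whether shared sequence altered the counts of a single member.

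The data held 74758 cells, 2193 to 6126 per mouse, and 17150296 to 102446549 UMIs per mouse. Microglial markers (P2ry12, Tmem119, Cx3cr1, Csf1r, Sall1) were found in 74739 cells (99.97%), and 43 cells (0.0575%) had more UMIs on the markers of some other cell type. Pools shared 546 cell barcodes. Groups differed in depth: the median UMIs per cell averaged 7566 in WT ATV:ISO, 15338 in WT ATV:4D9, 9339 in AppSAA ATV:ISO, 9741 in AppSAA 4D9 and 15523 in AppSAA ATV:4D9. Cycling genes (Mki67, Top2a, Pcna) summed to 67.2 to 98.6 CPM (UMIs per 1000000 UMIs of a mouse) in WT ATV:ISO and 566 to 733 in WT ATV:4D9. In AppSAA mice their sum was 91.3 to 116 with ATV:ISO, 84.4 to 125 with 4D9 and 469 to 580 with ATV:4D9. These 5 microglial markers together were at 11674 to 13393 CPM in WT ATV:ISO, 6068 to 7275 in WT ATV:4D9, 6810 to 8837 in AppSAA ATV:ISO, 7059 to 8427 in AppSAA 4D9 and 4778 to 6432 in AppSAA ATV:4D9. The sum of 3 endothelial markers was 18.3 to 24.4 CPM in WT ATV:ISO, 9.49 to 12.9 in WT ATV:4D9, 37.5 to 52.2 in AppSAA ATV:ISO, 38.98 to 49.03 in AppSAA 4D9 and 13.2 to 25.9 in AppSAA ATV:4D9. Of these, Flt1 was called higher and Pecam1 lower in AppSAA against WT under ATV:ISO, and Cldn5, a junction protein of endothelium, was at 0 to 0.416 CPM in every mouse. The astrocyte list summed to 135 to 164 CPM in WT ATV:ISO, 59.8 to 74.5 in WT ATV:4D9 and 61.4 to 111 in AppSAA mice, almost all of it Slc1a3, with Aqp4 and Gja1 under 1 CPM. The B cell list was at 276 to 304 CPM in WT ATV:ISO, 203 to 216 in WT ATV:4D9 and 177 to 269 in AppSAA mice. UMIs of that list were found in 83.2 to 90.7% of the cells of each deposited cluster, so they were not confined to a few cells. The monocyte list was at 9.28 to 12.8 CPM in AppSAA ATV:4D9 and 3.74 to 8.73 in the other groups. The percent of mitochondrial UMIs averaged 1.36 in WT ATV:ISO, 1.65 in WT ATV:4D9 and 1.74 in AppSAA ATV:ISO mice, higher than WT ATV:ISO in 4 of 4 pools in both, and the members' share taken over nuclear genes alone differed by 3.73 and 5.88 percentage points. The oligodendrocyte list was at 27.8 to 40.5 CPM in WT ATV:ISO and 14.7 to 26.6 in WT ATV:4D9. In AppSAA mice it was at 30.9 to 44.4 with ATV:ISO, 31.4 to 43.0 with 4D9 and 15.3 to 37.8 with ATV:4D9. The neuron list was at 1.12 to 1.77 CPM in WT ATV:ISO, 0.479 to 0.856 in WT ATV:4D9 and 0.325 to 0.944 in AppSAA mice. Depth, the mitochondrial percent and these markers move with the results that follow, and their part in them was not tested.

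The members held 154939777 UMIs, 15.2% of all, and the share differed between groups. In WT ATV:ISO mice of pools 1 to 4 it was 10.8, 10.9, 10.3 and 10.3%, the lowest of all groups. In WT ATV:4D9 mice it was 14.7, 13.3, 14.1 and 14.8%, and in AppSAA ATV:ISO mice 15.4, 17.9, 15.6 and 16.3%. Neither group overlapped with WT ATV:ISO. In AppSAA 4D9 mice it was 17.0, 16.6, 16.0 and 16.0% and in AppSAA ATV:4D9 mice 16.7, 15.6, 15.9 and 15.8%. The 3 AppSAA groups overlapped with one another. Group means were 10.6 ± 0.311, 14.2 ± 0.648, 16.3 ± 1.16, 16.4 ± 0.504 and 16.0 ± 0.476% (SD, n = 4), in the same order. The share is a score over the members and was given no p.

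**Figure D1:**
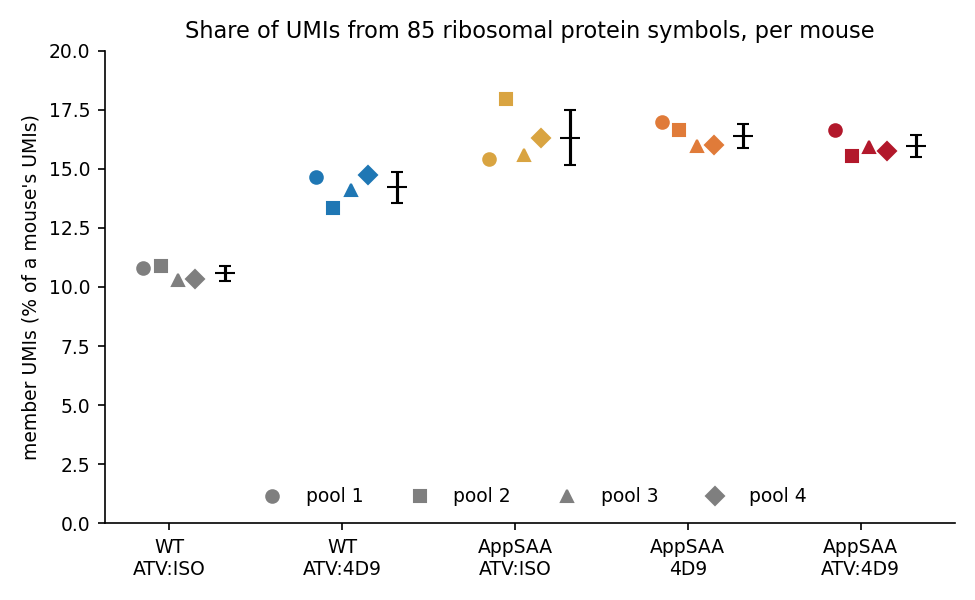
Share of each mouse's UMIs that fell on cytosolic ribosomal protein genes (y axis, percent) in the 5 groups (x axis), with 1 point per mouse, the marker shape for its pool, and the group mean with SD bars (n = 4) beside the points. The 4 WT ATV:ISO mice sit between 10.3 and 10.9%, below every mouse of the other groups.

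Within pools, the share in WT mice was higher with ATV:4D9 than with ATV:ISO in 4 of 4 pools, by 3.63 percentage points on average (2.45 to 4.41). Among cells of 8000 to 12000 UMIs, a range chosen after seeing the data, the difference was 1.51. That range held on average 736.5 of 2464 cells per mouse in WT ATV:ISO and 848 of 3985.5 in WT ATV:4D9. It lay below the median UMIs per cell of every ATV:4D9 mouse, the lowest being 13479 in WT and 13560 in AppSAA mice. The deposited clusters differed in depth, so the range can also change the mix of cells. AppSAA exceeded WT under ATV:ISO in 4 of 4 pools by 5.73 points (4.60 to 7.06), and by 3.47 in cells of that range. In AppSAA mice, ATV:4D9 minus ATV:ISO was -0.33 points and was above 0 in 2 of 4 pools (-2.38 to 1.26), and 4D9 minus ATV:ISO was 0.0843. ATV:4D9 minus 4D9 was -0.42 and below 0 in all 4 pools (-1.08 to -0.03), but its sign turned to 0.885 as a mean over cells and 1.02 in cells of 8000 to 12000 UMIs, each above 0 in 4 of 4 pools. ATV:4D9 minus ATV:ISO also had the opposite sign, 1.18 points, in cells of 8000 to 12000 UMIs and 1.06 as a mean over cells. The AppSAA ATV:ISO mouse of pool 2, at 17.9%, decided the sign of ATV:4D9 minus ATV:ISO, since without it the difference was 0.21. AppSAA ATV:4D9 exceeded WT ATV:4D9 in 4 of 4 pools by 1.77 points, and by 3.14 in cells of that range.

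Member UMIs per cell averaged 910 in WT ATV:ISO, 2390 in WT ATV:4D9, 1880 in AppSAA ATV:ISO, 1950 in AppSAA 4D9 and 2738 in AppSAA ATV:4D9. From ATV:ISO to ATV:4D9 in WT mice they were 2.62 times as many within pools, when UMIs of all other genes were 1.87 times as many. From WT to AppSAA under ATV:ISO the ratios were 2.06 and 1.25. From ATV:ISO to ATV:4D9 in AppSAA mice they were 1.48 and 1.497. Sums per mouse do not tell more RNA per cell from a different mix of cells.

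In WT mice, ATV:4D9 raised most ribosomal protein mRNAs relative to other genes, with sizes that ranged in the core members from a fall to 2.99-fold. Of 84 tested members 71 rose and 1 fell, against 30.8% of all tested genes called higher and 32.5% called lower (edgeR quasi-likelihood test, Benjamini-Hochberg adjusted p under 0.05, 4 mice against 4). With the pool as a block the counts were 77 and 2, against 35.6% and 39% of all tested genes. The median log2 fold change was 0.55 over the members and -0.05 over all tested genes. In 65 members (of 84) the CPM of the 2 groups of mice did not overlap, which was also so in 57% of all tested genes. The members of the small subunit, 28 higher and 1 lower of 34, and of the large subunit, 43 higher of 50, had medians of 0.53 and 0.55.

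Rps2, a small subunit protein near the mRNA entry, moved most among the core members. Its level was 1091, 1059, 856 and 900 CPM in WT ATV:ISO mice of pools 1 to 4 and 2963, 2596, 2565 and 2682 in WT ATV:4D9 mice. All treated mice lay above all controls by more than the spread in either group. The log2 fold change was 1.58 ± 0.16 (SE), with an edgeR adjusted p of 5.06e-08. Rpsa, a small subunit protein also known as the laminin receptor precursor, was at 1145, 1065, 1001 and 1003 CPM with ATV:ISO and 3014, 2570, 2824 and 2850 with ATV:4D9. Again no mouse overlapped, and the log2 fold change was 1.53 ± 0.13 (edgeR adjusted p = 2.63e-09). Rps19, a small subunit protein mutated in Diamond-Blackfan anemia, rose by 1.18 ± 0.09.

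Rps27, a zinc-finger protein of the small subunit, was the member that fell. It was at 978, 1098, 1180 and 1118 CPM in WT ATV:ISO and 739, 757, 857 and 883 in WT ATV:4D9 mice, so that every treated mouse lay below every control. The log2 fold change was -0.32 ± 0.09 (edgeR adjusted p = 0.00414). Rps9, a small subunit protein that binds rRNA early in assembly, was at 2109, 2042, 2012 and 1983 CPM with ATV:ISO and 1853, 1631, 1826 and 1844 with ATV:4D9. Its groups did not overlap either, but its log2 fold change of -0.07 ± 0.09 after normalization did not pass the test (edgeR adjusted p = 0.5). The other members that were not called included Rps21, Rps14, Rps4x, Rps27rt, Rpl10, Rpl21, Rpl30, Rpl34, Rpl35a and Rpl7l1. A block for the pool brought calls for Rps21, Rps14, Rps4x, Rpl21, Rpl34 and Rpl35a, higher, and for Rps27rt, lower.

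**Figure D2:**
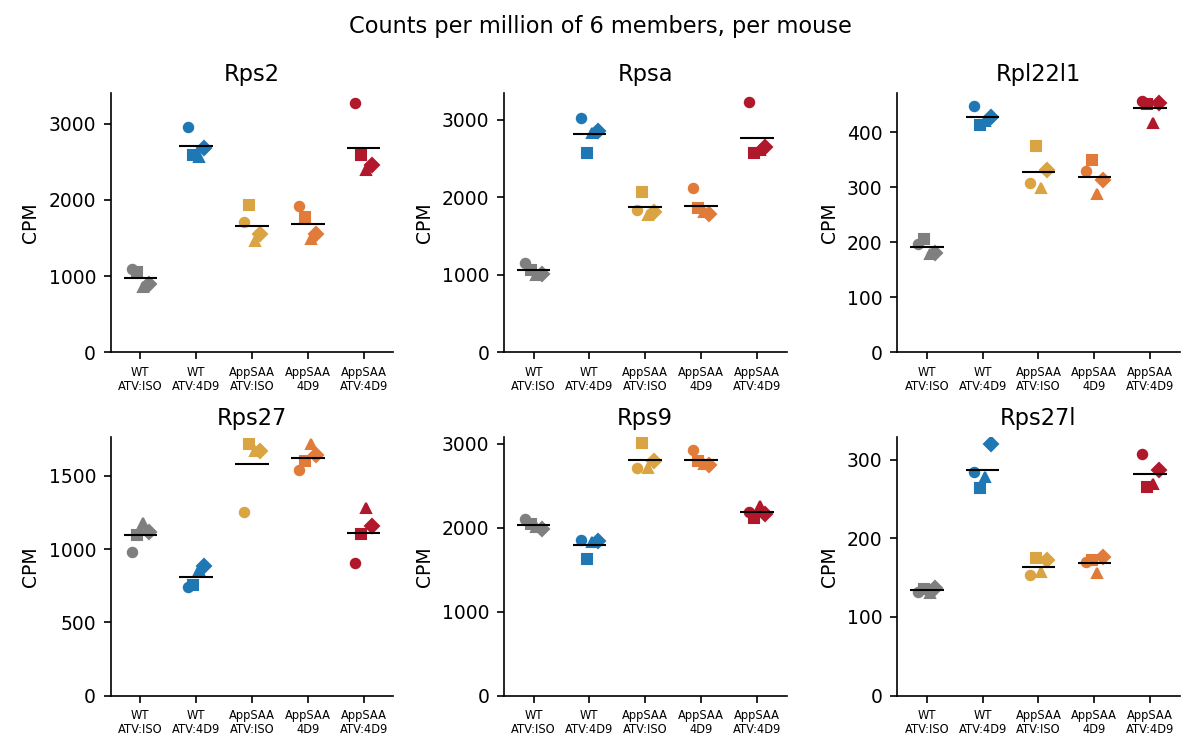
Level of 6 members (y axes, CPM) in the 5 groups (x axes), with 1 point per mouse, the marker shape for its pool and a line at the group mean. Rps2 and Rpsa are lowest in WT ATV:ISO, and Rps27 is lowest in WT ATV:4D9, at 739 to 883.

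Members fixed for their role lay between these ends. The stalk of the large subunit, which draws elongation factors to the ribosome, consists of Rplp0, Rplp1 and Rplp2, and in WT mice these rose by 0.96 ± 0.11, 0.48 ± 0.09 and 0.60 ± 0.10. Rplp1 was the most abundant member, at a mean of 4925 CPM and 3.35% of member UMIs, and Rps29, Rps12, Rps24 and Rpl13 came next. Of these, Rps12 rose by 0.80 ± 0.10 and Rps29 by 0.22 ± 0.08, and the call of Rps29 was lost without the WT ATV:4D9 mouse of pool 3 or that of pool 4. Rpl5 and Rpl11, which join 5S rRNA and can bind Mdm2, rose by 0.46 ± 0.08 and 0.61 ± 0.10. Rps6, the substrate of S6 kinase, rose by 0.83 ± 0.11. Rps27a, made as a fusion with ubiquitin, rose by 0.64 ± 0.11, Rps3 by 0.45 ± 0.09 and Rpl3, a protein of the catalytic center, by 0.64 ± 0.08. Rpl10, which joins the large subunit late, and the X-linked Rps4x were not called, at 0.14 ± 0.12 and 0.18 ± 0.10.

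Nearly every member was higher in AppSAA than in WT mice under ATV:ISO. Of 84 members 82 were higher and 0 lower, where 14.4% of all tested genes were called higher and 13.7% lower. The median log2 fold change was 0.80, and -0.06 over all tested genes. With the pool as a block 82 were higher and 1 lower, against 21.5% and 29.4% of all tested genes. All 77 core members were higher, from 0.51 for Rplp1 to 1.20 for Rpl41, with the middle of the distribution between 0.74 and 0.90. Their SD over members was 0.11, and the median SE of a single member was 0.11. An SE describes the spread between mice and does not measure how far members differ from one another. For 4D9 against ATV:ISO in AppSAA mice the SD over the core members was 0.0136, with a median SE of 0.105. In the ATV:4D9 effect in WT mice the SD over the core members was 0.34 and the median SE 0.11. These comparisons share the WT ATV:ISO mice, so their values are set side by side only.

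Rpl41, the shortest protein of the ribosome, was at 1198, 1450, 980 and 1131 CPM in WT ATV:ISO mice and 2188, 3124, 1967 and 2318 in AppSAA ATV:ISO mice. The groups did not overlap, although in each the mouse of pool 2 was highest and that of pool 3 lowest. The log2 fold change was 1.20 ± 0.17 (edgeR adjusted p = 1.92e-05). Rpl23, Rpl10a and Rpl32 of the large subunit followed at 1.04 ± 0.10, 1.03 ± 0.10 and 1.03 ± 0.10, and Rpsa was at 1.01 ± 0.13. Rps27 and Rps9, which ATV:4D9 did not raise in WT mice, were higher in AppSAA. Rps27 was at 1256, 1716, 1673 and 1672 CPM in AppSAA ATV:ISO mice, all above the WT ATV:ISO mice, with a log2 fold change of 0.72 ± 0.09 (edgeR adjusted p = 4.17e-06). Rps9 was at 2709, 3012, 2710 and 2797 CPM there, with a log2 fold change of 0.65 ± 0.09. The 2 members not called are outside the core: Rps19bp1, a binding partner of Rps19, at 0.08 ± 0.10 and Rpl7l1, a nucleolar relative of Rpl7, at -0.20 ± 0.09. Rpl7l1 was called lower with the pool as a block (edgeR adjusted p = 0.00182).

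**Figure D3:**
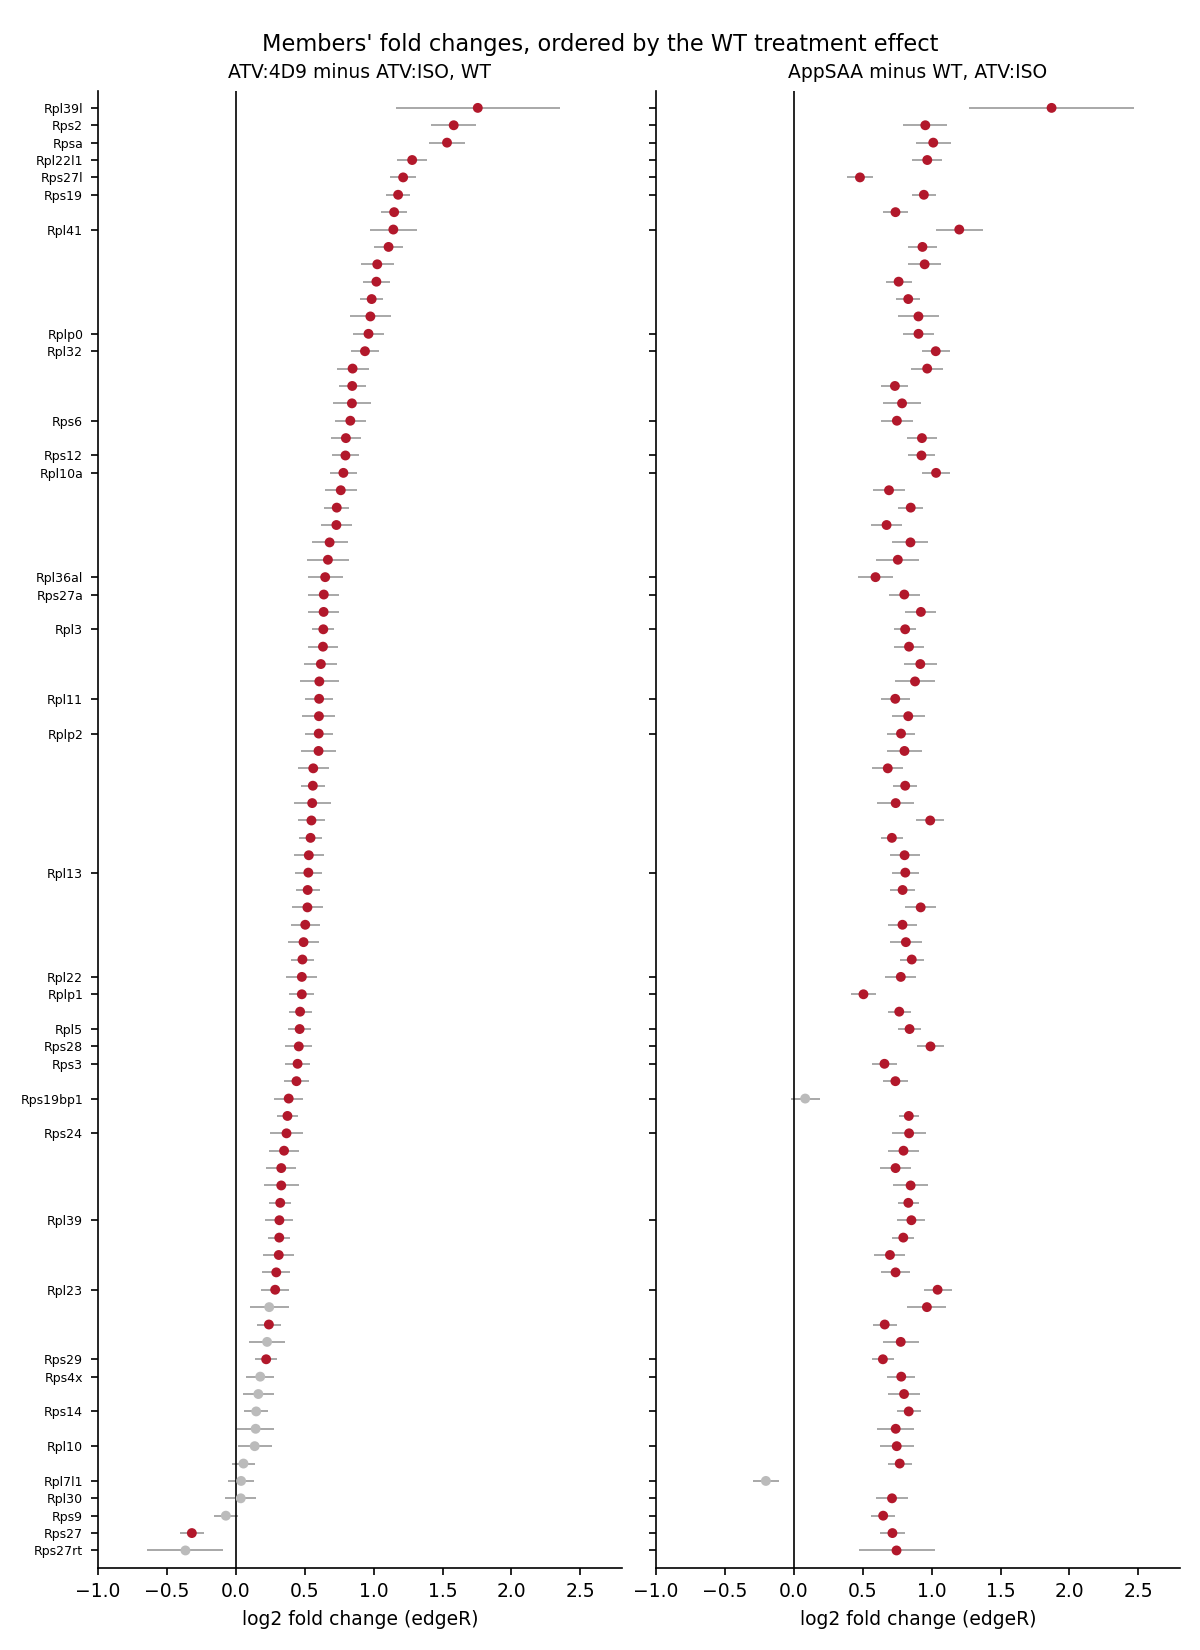
Log2 fold change of each tested member (points, with SE bars) for ATV:4D9 against ATV:ISO in WT mice and for AppSAA against WT under ATV:ISO, in red where the adjusted p was under 0.05 and in grey otherwise, with names given for some members. Core members spread from -0.32 to 1.58 in the former comparison and from 0.51 to 1.20 in the latter.

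In AppSAA mice, ATV:4D9 left the median of the members near 0, with relatively fewer calls than among all tested genes. Against ATV:ISO 15 of 84 members (17.9%) were higher and 7 lower, with a median of 0.05. Of all tested genes 27.9% were called higher and 27.1% lower. With the pool as a block 24 were higher and 12 lower, against 34.5% and 36.2% of all tested genes. In both fits the members were called less often than tested genes at large, in either direction. Rps2 was at 1703, 1933, 1462 and 1555 CPM with ATV:ISO and 3276, 2590, 2392 and 2457 with ATV:4D9, with no overlap and a log2 fold change of 0.76 ± 0.16 (edgeR adjusted p = 0.000419). Rpsa went from 1836, 2066, 1766 and 1804 to 3225, 2567, 2610 and 2653 CPM, with no overlap, a log2 fold change of 0.64 ± 0.13 and the mouse of pool 1 highest under ATV:4D9. Rps27l, Rpl22l1 and Rps19 rose by 0.85 ± 0.09, 0.51 ± 0.11 and 0.47 ± 0.09.

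The members that fell included Rps27, Rps9, Rpl30, Rpl23, Rps4x and Rps14. Rps27 was at 906, 1106, 1280 and 1156 CPM with ATV:4D9, and only the ATV:ISO mouse of pool 1, at 1256, fell within this range. Its log2 fold change was -0.44 ± 0.09 (edgeR adjusted p = 0.000346). Rps9 was at 2188, 2118, 2261 and 2169 CPM, below every ATV:ISO mouse, with a log2 fold change of -0.29 ± 0.09 (edgeR adjusted p = 0.00848). The calls of Rpl30, Rps4x, Rpl23 and Rps14 were lost in 11, 9, 7 and 7 of 17 other settings.

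Without the transport vehicle, 4D9 gave 0 called members of 84 against ATV:ISO, and 0% of all tested genes were called in either direction. These arms differ in both the antibody and the vehicle, since no group was given a control antibody without ATV. No member had an unadjusted p under 0.05, and 79 of 14058 genes did. That is fewer genes than such a cut gives by chance, so this fit, without a pool term, could miss small differences. DESeq2 and limma-voom, also without a pool term, called 0 members, and no member's call changed with the pool as a block. The median over the members was 0.01. Rps2 was at 1925, 1775, 1488 and 1550 CPM and Rps27 at 1542, 1601, 1717 and 1643 CPM with 4D9, within or close to the range of the ATV:ISO mice. ATV:4D9 against 4D9 in AppSAA mice called 15 members higher and 8 lower, with a median of 0.03, where 27.6% of tested genes were called higher and 26.7% lower. The pool as a block gave 22 and 14, against 34.2% and 35.6% of tested genes. Here too the members were called less often than tested genes at large. Rps2 had a log2 fold change of 0.73 ± 0.16 and Rps27 one of -0.49 ± 0.09 in that comparison, which shares the ATV:4D9 mice with the one against ATV:ISO.

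Over all cells, the genotypes differed less under ATV:4D9 than under ATV:ISO. In share the difference was 1.77 against 5.73 points, but 3.14 against 3.47 in cells of 8000 to 12000 UMIs. AppSAA against WT, both given ATV:4D9, had 30 members higher and 0 lower, with a median of 0.30, where 7.84% of tested genes were called higher and 3.98% lower. That count depends on the fit: it was 74 with the pool as a block, 46 in cells of 1000 to 25000 UMIs and 17 with only these 2 groups in the fit, where 17%, 8.97% and 6.1% of tested genes were called higher. Without the AppSAA ATV:4D9 mouse of pool 1 it was 16, without the WT ATV:4D9 mouse of pool 2 it was 13 and without that of pool 3 it was 16, where 7.72%, 6.25% and 6.4% of tested genes were called higher. Rps27 differed most, at 0.59 ± 0.09 (edgeR adjusted p = 9.84e-05), and other called members were Rpl23 at 0.49 ± 0.10, Rps14 at 0.45 ± 0.09 and Rps28 at 0.43 ± 0.10. Rps2 and Rpsa, at 0.14 ± 0.16 and 0.12 ± 0.12, were not called.

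The difference of the ATV:4D9 effects, AppSAA minus WT, was tested itself, on sums over all cells of a mouse. It was lower in 44 members and higher in 0, with a median of -0.50, where 5.35% of tested genes were called lower and 3.79% higher. The pool as a block gave 78 lower and 1 higher, where 13.6% of tested genes were lower and 16.9% higher. Without the AppSAA ATV:ISO mouse of pool 2 or without the WT ATV:4D9 mouse of pool 1, 29 were called, where 4.24% and 4.43% of tested genes were called lower. Rpsa had -0.89 ± 0.18 (edgeR adjusted p = 0.00254), Rpl22l1 -0.77 ± 0.15 and Rpl10a -0.76 ± 0.14. Rpl41 had -0.86 ± 0.24 and Rps2 -0.82 ± 0.22, and each lost its call when 1 of 5 mice was left out, with adjusted p-values of up to 0.067 and 0.061. Rps27 had -0.12 ± 0.13 (edgeR adjusted p = 0.645).

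Over all cells, the order of the members was alike in both genotypes although the level of the effect was not. With ATV:4D9 the share differed by 3.63 points in WT and -0.33 in AppSAA mice over all cells. In cells of 8000 to 12000 UMIs, a range below the median of every ATV:4D9 mouse, these differences were 1.51 and 1.18. Single members were not fitted on those cells. Across the 84 members the ATV:4D9 effects in WT and AppSAA had a Pearson r of 0.791 and a Spearman rho of 0.825, and across the 77 core members r was 0.959. The comparisons share no mice, but the mice share pools and capture runs and the members are not independent, so these values are a description. Among the core members the SD of the effect was 0.34 in WT and 0.22 in AppSAA mice, with median SEs between mice of 0.11. Rps27 was lowest and Rps2 highest in each.

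**Figure D4:**
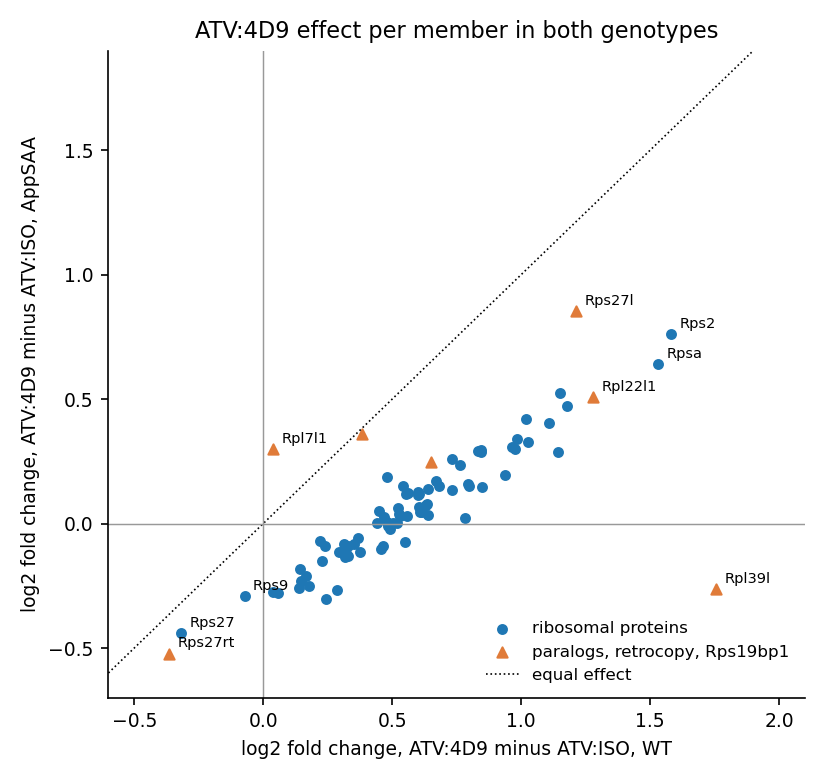
Log2 fold change of each tested member for ATV:4D9 against ATV:ISO in AppSAA mice (y axis) against that in WT mice (x axis), with 1 circle per core member, triangles for the 7 other tested members and a dotted line where the effects would be equal. Rps2 lies at 1.58 in WT and 0.76 in AppSAA mice, and Rps27 at -0.32 and -0.44.

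The UMIs of several paralogs, relative to those of their parent genes, differed between groups. Rpl22l1, a paralog of Rpl22, was at 197, 205, 179 and 181 CPM in WT ATV:ISO and 447, 413, 421 and 428 in WT ATV:4D9 mice. Its UMIs came to 24.4 ± 0.395% of those of Rpl22 in the controls and 42.5 ± 1.10% in the treated mice (SD, n = 4). In AppSAA mice the values were 27.9% with ATV:ISO, 26.8% with 4D9 and 39.5% with ATV:4D9. The ratio was high in both ATV:4D9 groups and in no other. Rps27l, a paralog of Rps27 and a target of p53, was at 12.3 and 35.5% of Rps27 in WT mice given ATV:ISO and ATV:4D9. In AppSAA mice it was at 10.5% with ATV:ISO, 10.4% with 4D9 and 25.9% with ATV:4D9. Rps27l itself rose by 1.21 ± 0.10 in WT mice (edgeR adjusted p = 1.10e-09), as Rps27 fell.

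Rpl7l1 differed from Rpl7 most between genotypes under ATV:ISO. It was at 9.58% of Rpl7 in WT ATV:ISO and 5.27% in AppSAA ATV:ISO mice, and at 8.41 and 6.91% in the WT and AppSAA ATV:4D9 groups. Rpl36al, an intronless copy of Rpl36a, was at 78.2% of its parent in WT ATV:ISO, 83.9% in WT ATV:4D9, 59.9% in AppSAA ATV:ISO and 74.2% in AppSAA ATV:4D9 mice. Rpl36a shares 100% of its terminal 50-base words with other genes and Rpl36al 67.4%, and the part of read assignment in this ratio was not tested. Rpl39l, known from testis, had a mean of 5.49 CPM. It was called higher in WT ATV:4D9 and in AppSAA ATV:ISO mice, and limma-voom did not call either. The former call was also lost without the WT ATV:4D9 mouse of pool 4, and the latter without the AppSAA ATV:ISO mouse of pool 4 or the WT ATV:ISO mouse of pool 2 or 3. Rps19bp1, which is no ribosomal protein, rose with ATV:4D9 in WT and AppSAA mice by 0.38 ± 0.10 and 0.36 ± 0.10. Rps27rt, a retrogene copy of Rps27, shares 88.4% of its terminal 50-base words with other genes. Its UMIs came to 2.05 to 2.18% of those of Rps27 in pool 1, 3.48 to 3.78% in pool 2, 2.00 to 2.16% in pool 3 and 3.00 to 3.06% in pool 4, over all 5 groups. The ratio differed between pools and hardly between the groups of a pool.

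The deposited annotation divides the cells into 6 clusters at resolution 0.2. Whether these genes were among the features clustered is not given in the sources used here, so cluster values are given without a test. Over sums of at least 20 cells of a mouse, the members held 11.8 ± 1.25% of UMIs in cluster 0 (n = 20), 19.97 ± 1.20% in cluster 1 (n = 16), 14.9 ± 1.23% in cluster 2 (n = 20), 11.6 ± 1.30% in cluster 3 (n = 20), 14.9 ± 0.916% in cluster 4 (n = 16) and 15.02 ± 1.54% in cluster 5 (n = 17; SD over mice). Cluster 1 was above each other cluster in every mouse with both. Clusters 0 and 3 had the highest sums of the microglial markers, 12952 and 11125 CPM against 4949 to 6572 in the others, and cluster 4 had 1238 CPM of the cycling genes. The 3 endothelial markers summed to 65.3 CPM in cluster 1 and 10.9 to 26.2 in the others. The monocyte list was at 30.0 CPM in cluster 5 and 5.06 to 6.88 in the others, and the astrocyte list at 110 to 148 in clusters 0, 3 and 5 and 59.9 to 72.5 in the others. The part of these markers in the shares was not tested.

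The groups filled the clusters unevenly. Cluster 1 held 7204 cells of AppSAA ATV:ISO, 5374 of AppSAA 4D9 and 2186 of AppSAA ATV:4D9 mice, but 138 of WT ATV:ISO and 61 of WT ATV:4D9 mice. Cluster 2 held 7643 cells of WT ATV:4D9 and 5883 of AppSAA ATV:4D9 mice and 133 of WT ATV:ISO mice. As a description, every cluster was given its mean share over mice of all groups, weighted by each mouse's UMIs in it. This calculation gave a difference of 2.74 points for ATV:4D9 in WT mice, where 3.63 was observed. For AppSAA against WT under ATV:ISO it gave 4.15 points, where 5.73 was observed, and under ATV:4D9 0.615 points, where 1.77 was observed. In AppSAA mice it gave -0.79 points for ATV:4D9 against ATV:ISO, where -0.33 was observed, and -0.84 against 4D9, where -0.42 was observed. The cluster means came from these same mice, so group differences within clusters enter the calculation, which cannot separate them from the makeup. In cluster 1 the share averaged 18.1% in WT ATV:ISO (n = 3) and 20.3% in AppSAA ATV:ISO mice (n = 4). Within cluster 0 the share was 10.3 ± 0.358% in WT ATV:ISO, 11.4 ± 0.617% in WT ATV:4D9, 11.8 ± 0.439% in AppSAA ATV:ISO, 11.7 ± 0.305% in AppSAA 4D9 and 13.7 ± 1.13% in AppSAA ATV:4D9 mice (SD, n = 4). The AppSAA ATV:4D9 mice of pools 1 and 3 had 42 and 37 cells there. In AppSAA mice given ATV:4D9 and ATV:ISO the share was 20.7 ± 0.398 and 20.3 ± 0.951% in cluster 1 (SD, n = 4). In cluster 2 it was 15.62 ± 0.797 and 15.60 ± 1.15%, and in cluster 3 13.6 ± 1.15 and 11.2 ± 0.560%. It was 14.6 ± 0.773 and 15.6 ± 1.11% in cluster 4 and 16.1 ± 0.382 and 15.5 ± 1.45% in cluster 5. The groups overlapped in each of these clusters, and the AppSAA ATV:ISO sums of cluster 4 rest on 186 cells in all.

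**Figure D5:**
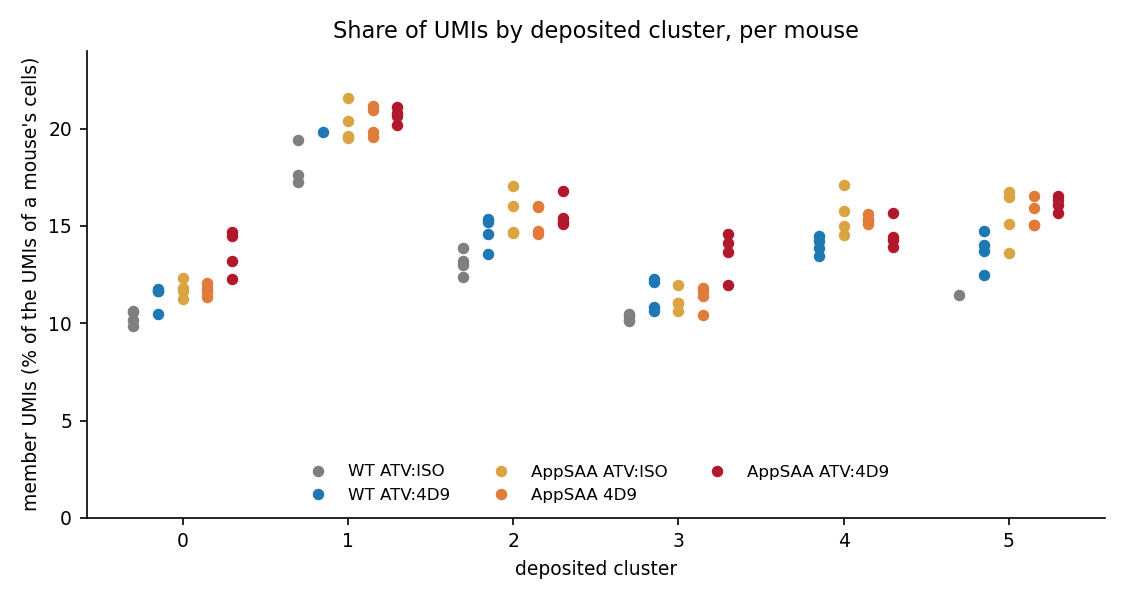
Share of UMIs on cytosolic ribosomal protein genes (y axis, percent) in each deposited cluster (x axis), with 1 point per mouse with at least 20 cells there, colored by group. Cluster 1 lies highest, at 17.2 to 21.6%, and clusters 0 and 3 lowest.

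Gene by gene, most members were higher in each of clusters 1, 2, 4 and 5 than in clusters 0 and 3 of the same mouse. On log2 CPM with a pseudocount of 1 CPM, the median over members was 0.78 in cluster 1, 0.36 in cluster 2, 0.33 in cluster 4 and 0.33 in cluster 5. Over all tested genes these medians were -0.34, -0.14, -0.10 and -0.18. Of 84 members, the median over mice was above 0 in 82 in cluster 1, 81 in cluster 2, 79 in cluster 4 and 83 in cluster 5. Members above 0 in every mouse numbered 79, 60, 49 and 65, in the same order. Such counts were not made over all tested genes. In cluster 1 the members ran from -0.56 for Rpl7l1 to 1.28 for Rpl41. In cluster 4 Rps27l was at 1.17 and Rpsa at 1.00, and Rps27 was at -0.32 and above 0 in none of 16 mice. In cluster 2 Rps27l and Rps2 were at 0.95, Rps27 at -0.04 and Rps9 at -0.02. Cluster 3 differed little from cluster 0, with a median of -0.04.

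In tests within clusters, on sums per mouse, the number of called members depended on whether the pool was in the fit. Between WT ATV:ISO and WT ATV:4D9 in cluster 2, 9 members were higher and 1 lower, where 3.19% of tested genes were called higher and 2.69% lower. The WT ATV:ISO sums there rest on 133 cells in all. Among these members Rpl22l1 was higher by 0.72, Rps2 by 0.54, Rps18 by 0.52, Rpsa by 0.48, Rpl32 and Rps19 by 0.41, Rpl31 by 0.39 and Rps12 by 0.38, and Rps27 was lower, at -0.36, on the log2 scale. With the pool as a block 21 were higher and 1 lower, against 5.84% and 5.14% of tested genes. Leaving out a WT ATV:4D9 mouse gave 4 calls without pool 1, 17 without pool 2 and 3 without pool 4. Leaving out a WT ATV:ISO mouse gave 2 without pool 1, 4 without pool 3 and 3 without pool 4. In these 6 fits 1.72 to 3.6% of tested genes were called higher and 1.67 to 2.43% lower.

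For AppSAA against WT under ATV:ISO in cluster 0, 0 members were called, where 0.222% of tested genes were called higher and 0.0513% lower. The median was 0.22, and 43 members had an unadjusted p under 0.05, as did 4.52% of tested genes. With the pool as a block 79 were called higher, as were 3.05% of tested genes. In cluster 3 the same comparison called 0 members, with a median of 0.14, where 0.172% of genes were higher and 0.0172% lower, and 1 member had an unadjusted p under 0.05, against 3.88% of genes. AppSAA ATV:4D9 against ATV:ISO in cluster 1 called 0, with a median of 0.08 and 0 members of unadjusted p under 0.05, where 10.3% of genes had one and 1.06% were called higher and 0.451% lower. AppSAA against WT under ATV:4D9 called 0 members in cluster 2 (median 0.17, 1.94% of genes higher and 0.125% lower) and 0 in cluster 4 (median 0.14, 2.49% higher and 0.273% lower). An unadjusted p under 0.05 was found there in 4 members and 7.7% of genes, and in 1 member and 10.3% of genes. WT mice could not be compared in cluster 4, where no WT ATV:ISO mouse had 20 cells.

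Other genes of the translation machinery are given with each comparison's own counts. Treatment and genotype were not tested against each other, and in part share the WT ATV:ISO mice. Mitochondrial ribosomal proteins, which serve the separate ribosome of mitochondria, were higher in 66 of 78 under ATV:4D9 in WT mice and in 63 of 78 in AppSAA mice, with medians of 0.52 and 0.48, where 30.8 and 27.9% of all tested genes were called higher. They were higher in 10 of 78 (12.8%) in AppSAA against WT under ATV:ISO, near the 14.4% of all tested genes, with a median of 0.08. Of 34 genes of ribosome assembly, 32 were higher under ATV:4D9 in each genotype and 6 (17.6%) in AppSAA against WT, again near that background. Nop58 and Ncl, nucleolar proteins of that list, rose by 1.57 ± 0.09 and 1.42 ± 0.09 in WT mice, and for the genotype had 0.19 ± 0.09, not called, and 0.39 ± 0.09. Of 37 translation factors and other pyrimidine-tract mRNAs, 32 were higher and 1 lower in WT mice, 21 higher and 2 lower in AppSAA mice, and 19 (51.4%) higher in AppSAA against WT.

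Within that list Eef1a1, the factor that delivers tRNA, rose by 0.24 ± 0.09 under ATV:4D9 in WT mice and fell in AppSAA mice (-0.26 ± 0.09), and it was higher by 0.91 ± 0.09 in AppSAA mice under ATV:ISO. Of 16 genes of the mTOR axis 4 rose and 8 fell in WT mice, 5 rose and 4 fell in AppSAA mice, and 3 were lower in AppSAA against WT. Over all tested genes 30.8% rose and 32.5% fell in WT mice, 27.9% rose and 27.1% fell in AppSAA mice, and 13.7% were lower in AppSAA against WT, so the shares in AppSAA mice were near the background. Ddit4, an inhibitor of mTOR complex activity, fell in both genotypes (-2.07 ± 0.24 and -0.98 ± 0.24), and Larp1 rose (0.38 ± 0.07 and 0.43 ± 0.07). Ddit4 was low, at a mean of 12.6 CPM (SD 5.01) in WT ATV:ISO mice and lower in every other group. From WT ATV:ISO to WT ATV:4D9, mean CPM of Rptor went from 77.9 to 43.3, Rps6kb1 from 55.2 to 42.2 and Rheb from 108 to 150. In AppSAA mice, from ATV:ISO to ATV:4D9, they went from 55.0 to 39.6, 45.8 to 38.3 and 110 to 145. Whether mTOR signaling changed was not tested. Among ribosomal proteins with other symbols, Rack1 rose with ATV:4D9 in WT mice (0.87 ± 0.10), and Fau had -0.01 ± 0.13 there and was higher in AppSAA mice (0.82 ± 0.13).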

How the data were processed

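The authors pooled sorted cells of 5 mice, 1 per group, in each of 4 captures, assigned them to mice by CellPlex tags, aligned reads to mm10 with Cell Ranger 6.1.1 and clustered the cells with Seurat. The removal of cells or genes is not described in the sources used here. The matrix deposited by the authors gives raw UMI counts, and the deposited percent of mitochondrial UMIs per cell, with each cell's mouse, group and cluster, came with it. The counts summed to the deposited totals in all 74758 cells, all of which were kept, doublets not searched for. No per-sample column went unused (0). There were 92 cells under 1000 and 7141 over 25000 UMIs.

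Counts were added up for each mouse, and for each cluster of a mouse with at least 20 cells. edgeR 4.0.16 in R 4.3.3 (filterByExpr, TMM, quasi-likelihood test, p-values adjusted by Benjamini-Hochberg across the whole table and called at 0.05) took all 5 groups in 1 fit without a pool term. Within clusters, groups with at least 3 sums entered. The scripts were tested on simulated data. Fold changes are relative to other genes. Mice of a pool deviated together from their group means in 40 of 40 pairs (correlations 0.143 to 0.607), so the pool pairs the mice, as the labels state that each pool held 1 mouse per group. It was fitted as a block among the alternatives, which were RLE factors, TMM without the members, no filter, DESeq2 1.42.0, limma-voom (limma 3.58.1), cells of 1000 to 25000 UMIs, mitochondrially encoded genes left out, only the groups compared, and each mouse left out. Shares were also taken over nuclear genes, as a mean over cells and without the 8 other proteins, and cluster shares with sums of at least 50 cells and with the finer clustering (resolution 0.4). Named members are the 5 largest called rises and falls of each comparison at a mean of at least 10 CPM, the 5 most abundant, and those fixed by role or as paralogs. Rpl10l and Rps4l had no counts to analyse here. Some genes are not reported here by name, and 1 of them is left out of the microglial marker sums. The members and gene lists were chosen with earlier results of these data known. Gene positions and transcripts came from GENCODE vM21, and promoters from RefSeq (GRCm38.p6). Tables and plots used Python 3.11.15, pandas 2.3.3, numpy 2.4.6 and matplotlib 3.10.9. Depth was 17150296 to 102446549 UMIs per mouse. Low members and small cluster sums rest on few counts and carry more counting error.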

Additional observations from a re-analysis of the deposited data

Results flagged for a closer look

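In 18 of 226 groups of 4 mice looked at, the highest or lowest mouse lay so far from the nearest other that the gap, divided by the whole range of the group, passed Dixon's limit. Chance gives such a value in about 1 of 20 groups. In WT ATV:ISO mice this was Rpl39 (ratio 0.861, pool 2 highest at 1626 against 1454 CPM). In WT ATV:4D9 mice these were Rpl3 (ratio 0.922, pool 2 lowest at 1342 against 1518 CPM), Rpl41 (ratio 0.82903, pool 3 lowest at 2153 against 2491 CPM), Rpl7l1 (ratio 0.857, pool 2 highest at 99.7 against 92.7 CPM), Rps3 (ratio 0.942, pool 2 lowest at 1565 against 1796 CPM) and Rps9 (ratio 0.879, pool 2 lowest at 1631 against 1826 CPM). In AppSAA ATV:ISO mice these were Rpl13 (ratio 0.866, pool 2 highest at 3832 against 3427 CPM), Rps27 (ratio 0.905, pool 1 lowest at 1256 against 1672 CPM) and Rps4x (ratio 0.845, pool 2 highest at 3134 against 2732 CPM). In AppSAA ATV:4D9 mice these were Rpl22l1 (ratio 0.883, pool 3 lowest at 416 against 452 CPM), Rpl3 (ratio 0.888, pool 2 lowest at 1469 against 1630 CPM), Rpl32 (ratio 0.868, pool 1 highest at 3294 against 3013 CPM), Rplp0 (ratio 0.907, pool 1 highest at 2762 against 2456 CPM), Rps19bp1 (ratio 0.951, pool 1 highest at 49.4 against 42 CPM), Rps27a (ratio 0.862, pool 1 highest at 3370 against 3038 CPM) and Rpsa (ratio 0.869, pool 1 highest at 3225 against 2653 CPM). The members' share of UMIs in cluster 0 had a ratio of 0.894 in WT ATV:4D9 mice, with pool 3 lowest at 10.5% against 11.6%. The members' share of UMIs in cluster 2 had a ratio of 0.835 in AppSAA ATV:4D9 mice, with pool 1 highest at 16.8% against 15.4%.

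By the test of the difference (AppSAA minus WT, log2 scale, edgeR quasi-likelihood test), the effect of ATV:4D9 was lower in AppSAA in 44 of 84 members. Of all tested genes 5.35% were called lower and 3.79% higher, and leaving out 1 mouse gave 29 to 65 members. The largest differences were Rpsa at -0.89, Rpl41 at -0.86, Rps2 at -0.82, Rpl22l1 at -0.77 and Rpl10a at -0.76. In cells of 8000 to 12000 UMIs, where this test was not run, the members' share differed with ATV:4D9 by 1.51 points in WT and 1.18 in AppSAA mice.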

How the results depend on the processing

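Counts of called members kept within 1.5 times of the reported ones in the other settings run, apart from those below. With the pool as a block they were 36 for ATV:4D9 against ATV:ISO and 36 against 4D9 in AppSAA mice, 74 for AppSAA against WT under ATV:4D9, 79 for the difference of effects, and within clusters 79 in cluster 0 (genotype), 22 in cluster 2 (WT treatment) and 1 in cluster 2 (genotype under ATV:4D9); the block moved no other count by that much. AppSAA against WT under ATV:4D9 gave 46 in cells of 1000 to 25000 UMIs and 17 with only its groups in the fit. Shares moved by more than the spread between mice to 1.51 points (WT treatment), 3.47 (genotype), 1.18 and 1.02 (AppSAA ATV:4D9 against ATV:ISO and 4D9) and 3.14 (genotype under ATV:4D9) in cells of 8000 to 12000 UMIs, and as a mean over cells to 4.56 (genotype), 1.06 and 0.885. The finer clustering widened the gap between the highest and lowest cluster from 8.41 to 17.0 points. The cause of these moves was not tested.

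Leaving out each mouse gave 67 to 73 calls for ATV:4D9 in WT mice, 80 to 82 for the genotype, 17 to 25, 18 to 22 and 0 to 0 in AppSAA mice (ATV:4D9 against ATV:ISO, against 4D9, and 4D9 against ATV:ISO), 13 to 39 for the genotype under ATV:4D9, 29 to 65 for the difference of effects and 2 to 17 within cluster 2 in WT mice, and 0 to 0 in the other comparisons within clusters. Shares ranged over 3.45 to 3.92, 5.19 to 6.04, -0.64 to 0.21, -0.22 to 0.63, -0.64 to -0.22 and 1.48 to 1.95 points (WT treatment, genotype, AppSAA ATV:4D9 against ATV:ISO, 4D9 against ATV:ISO, ATV:4D9 against 4D9, genotype under ATV:4D9). Of the named members' values in other settings, 2323 kept their call, 192 lost it and 0 changed sign. Each group held 4 mice, WT ATV:ISO mice had few cells outside clusters 0 and 3, and reads of near-identical copies cannot be told apart.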

Other observations

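The finer deposited clustering set apart 2488 cells in which the members held 22.4 ± 1.24% of UMIs in WT ATV:4D9, 31.7 ± 0.497% in AppSAA ATV:ISO, 31.7 ± 0.736% in AppSAA 4D9 and 26.1 ± 0.507% in AppSAA ATV:4D9 mice (SD, n = 4), and 26.8% in the 1 WT ATV:ISO mouse with at least 20 such cells. Of these cells 1410 came from cluster 1 of the coarser clustering, 733 from cluster 2 and 303 from cluster 4, where their share was 31.9, 24.1 and 21.5%. They made up 0.439% of cells in WT ATV:ISO, 2.68% in WT ATV:4D9, 3.62% in AppSAA ATV:ISO, 3.82% in AppSAA 4D9 and 5.0% in AppSAA ATV:4D9 mice. Against the other cells of the same mouse, 82 of 84 tested members were above 0 on the log2 scale, 81 of them in every mouse, with a median of 0.85 (-0.64 over tested genes), from -0.27 for Rpl7l1 to 1.33 for Rps26, a small subunit protein at the mRNA exit. Their median UMI count was 8959, against 11458 in the other cells, and its part in the higher share was not tested.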
